A study of Mus musculus with 2 samples.

Results

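Mir22, Mir139 and Mir149 are 3 microRNA genes, each annotated at 1 place in the mouse genome, that stood at ranks 3, 15 and 16 among the 2202 microRNA genes counted in gastrocnemius muscle. They were chosen by their level, as single-locus genes among the 20 highest by CPM (each gene's share of the reads on the sense strand of microRNA genes, scaled to 1e6 such reads), so their levels are given as a description with no test. Reads with several alignments were assigned to no gene, so microRNAs with identical copies are undercounted. Ranks and shares here are therefore among reads with 1 alignment and favour genes at 1 place. The gene at rank 20, Mir10b, held 12527 ± 2164 CPM (SD, n = 2) and the first gene below the limit, Mir744, held 10475 ± 2810 CPM. The 2 libraries form 1 group: calf muscle of adult males of strain 5xFAD/CAST, aged 8 to 10 months, as RNA shorter than 30 bases. 5xFAD carries human amyloid precursor and presenilin transgenes driven by the neuronal Thy1 promoter, CAST is a wild-derived strain, and whether these males carried the transgenes is not stated in the labels. The tissue samples have records of their own under a shared donor record. Separate animals are not named in the labels, so a difference between these samples may be technical. P-values of the exact binomial and Fisher tests below measure counting error only and hold no estimate of the spread between samples. There is no second condition, and every test below compares 2 libraries with each other.

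A microRNA is cut from a hairpin in a longer transcript, and 1 of the hairpin's arms is loaded onto an Argonaute protein. Its seed, bases 2 to 8 from the 5′ end, pairs with messenger RNAs, which are then repressed. miR-22 is enriched in heart and skeletal muscle and is known from hypertrophic growth of the heart. miR-139-5p is known as a growth-restraining microRNA that targets Igf1r, the insulin-like growth factor receptor. miR-149 is known in skeletal muscle for its repression of Parp2 and a resulting rise of mitochondrial biogenesis. The deposited counts are per gene, so the arms of a hairpin were not told apart.

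The mature sequences are shown because the seed sets which messengers each gene can address and which other microRNAs could share its targets. All 6 arms of the 3 genes were in the RefSeq table (build GRCm38.p6), and capitals mark the seed.
miR-22-3p: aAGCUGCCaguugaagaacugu
miR-22-5p: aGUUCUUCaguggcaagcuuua
miR-139-5p: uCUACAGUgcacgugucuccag
miR-139-3p: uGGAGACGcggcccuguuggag
miR-149-5p: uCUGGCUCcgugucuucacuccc
miR-149-3p: gAGGGAGGgacgggggcggugc

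No 2 of the 6 arms had the same seed. The seeds of both arms of Mir22, of both arms of Mir139 and of miR-149-5p occurred in no other mature microRNA of the table, which is not complete. The seed of miR-149-3p occurred in 4 other genes: Mir1943, Mir7016 and a pair of loci for miR-6967-5p. They are shown because they are the members' only seed relatives in the table, again with the seed in capitals.
miR-1943-5p: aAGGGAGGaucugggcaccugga
miR-7016-5p: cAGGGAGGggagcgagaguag
miR-6967-5p: cAGGGAGGgauaaagaccagu

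Mir1943 had 14 reads in replicate 1 and 7 in replicate 2, or 12.1 and 5.87 CPM. Mir7016 had 1 and 0 reads, and both miR-6967 loci, named Gm27775 and Gm27740 in the annotation, had 0 in each library. Their mature sequence is the same at both loci, so its reads would have several alignments and be assigned to no gene. Their 0 therefore sets no limit on miR-6967-5p. For a sequence at 1 place, 0 reads, taken as 3 reads, set a limit of 2.59 CPM in replicate 1 and 2.51 CPM in replicate 2. This limit covers counting error only. The counted reads of the relatives of Mir149, without miR-6967-5p, were 15 and 7, beside 19608 and 18546 reads of Mir149 itself. For scale, the 12 genes that share a seed of either arm with Mirlet7g, the gene ranked just below Mir22, held 190677 and 128465 reads. That family is large, and genes without a detected seed relative were common. Of 290 detected genes (2 CPM or more in both libraries) matched to the RefSeq table, 178 (61.4%) had none. The same held for 5 of the 15 matched genes among the other 17 of the 20 highest. Relatives missing from the table would lower these counts.

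The hairpins show how the arms lie, and capitals mark the mature arms, with the 5p arm first.
Mir22 hairpin: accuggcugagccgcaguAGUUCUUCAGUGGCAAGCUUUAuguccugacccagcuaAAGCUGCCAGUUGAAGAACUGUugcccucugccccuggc
Mir139 hairpin: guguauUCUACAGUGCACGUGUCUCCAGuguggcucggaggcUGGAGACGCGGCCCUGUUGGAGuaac
Mir149 hairpin: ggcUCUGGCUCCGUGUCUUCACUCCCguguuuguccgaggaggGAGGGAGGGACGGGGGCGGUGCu

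The Mir22 hairpin has 95 bases, that of Mir139 68 and that of Mir149 66. Predicted minimum free energies by RNAfold were -41.90, -35.60 and -36.70 kcal per mol in that order. In these folds 19 bases of the 5p arm paired with the 3p arm in Mir22, 19 in Mir139 and 17 in Mir149. The loop between the arms has 16, 14 and 17 bases. GC content was 55.8% for Mir22, 58.8% for Mir139 and 68.2% for Mir149, against a median of 51.4% over 321 detected genes. Of those 321 genes, 15 had a GC content as high as that of Mir149 or higher, Mir149 included. Its 3p arm is 81.8% G and C, with 15 G among 22 bases.

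All 3 genes are on the plus strand, inside a longer gene of the same strand, and their RefSeq and GENCODE M21 coordinates were identical. Mir22 (ENSMUSG00000065529.1, chromosome 11, 75463716 to 75463810, mm10) sits in exon 2 of both transcripts of Mir22hg, a noncoding host gene at 75461539 to 75466676. The same exon belongs to 1 noncoding transcript of Tlcd2, whose protein-coding transcripts start downstream of the hairpin. Mir139 (ENSMUSG00000065446.1, chromosome 7, 101475376 to 101475443) is intronic in Pde2a, the gene of a cGMP-stimulated phosphodiesterase, at 101421691 to 101512827. In 4 protein-coding Pde2a transcripts it falls in intron 2, which has 29902 bases, at 5927 bases from the next exon. The annotation also places it in intron 3 of Gm45837, a gene model that overlaps Pde2a on the same strand. Mir149 (ENSMUSG00000065470.1, chromosome 1, 92850378 to 92850443) lies within intron 1 of Gpc1, the gene of the heparan sulfate proteoglycan glypican-1, at 92831645 to 92860779. That intron has 21249 bases and the hairpin ends 2903 bases before exon 2. Host transcripts were not measured here, so host and microRNA levels could not be compared.

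**Figure D1:**
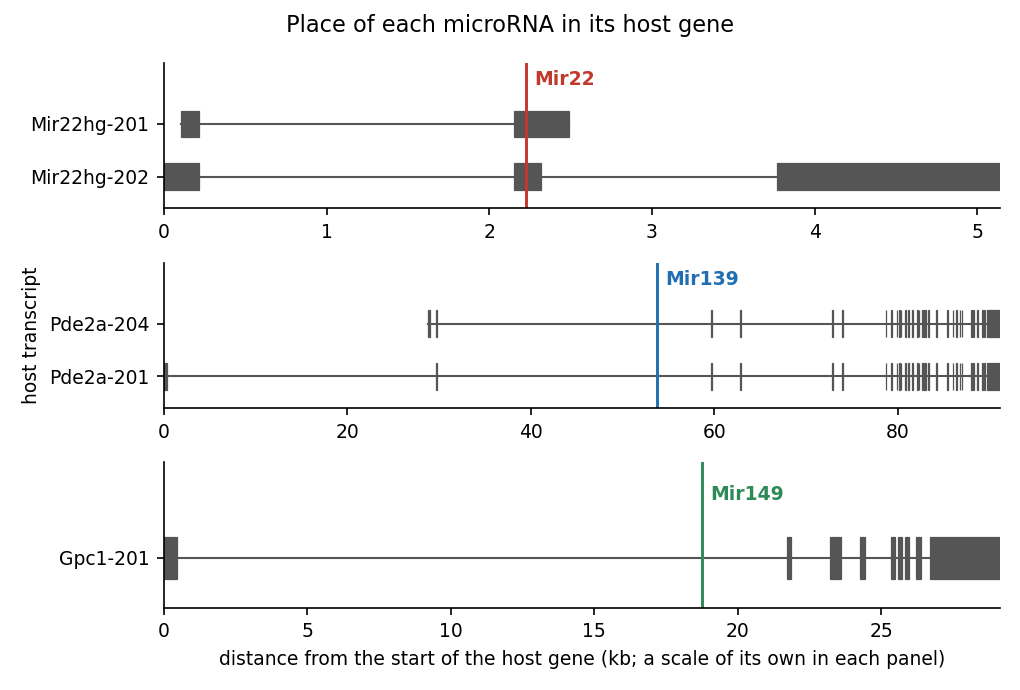
Exons (boxes) and introns (lines) of host transcripts along the distance from the start of the host gene in kb, each panel with a scale of its own; the coloured line marks the microRNA. Mir22 is in exon 2 of both Mir22hg transcripts, while Mir139 and Mir149 are in introns of Pde2a and Gpc1.

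None of the 3 belongs to a cluster of microRNA genes. The nearest microRNA genes to Mir22 were Gm47300 at 145 kb and Mir3971 at 87.6 kb, both at 0 reads in both libraries. Those nearest to Mir139 were Mir3102 at 593 kb, with 490 and 286 reads, and Gm22655 at 406 kb, at 0 reads. Mir6900 at 386 kb, with 1 read in each library, and Mir6901 at 424 kb, at 0 reads, flank Mir149.

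The label of single copy was checked against the sequences in hand. No stretch of 20 bases in the 3 hairpins recurred in a microRNA gene elsewhere, and none of 18 or 22 bases did. This was common: 247 of the 321 detected genes (76.9%) and 14 of the other 17 genes among the 20 highest shared no run of 20 bases. Across 141767 GENCODE transcripts, the 6 mature arms matched no transcript outside their own locus, either exactly or with 1 mismatch, on either strand. Both arms of Mir22 also matched Mir22hg and Tlcd2, whose exon contains the hairpin. A search of the whole genome was not made. Copies matter for these counts because a read with several alignments was assigned to no gene, which held for 60.2% of all reads in replicate 1 and 63.2% in replicate 2.

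Mir22 had 61071 reads in replicate 1 and 128959 in replicate 2. That is 5.28% of sense microRNA reads (exact Clopper-Pearson 95% interval 5.236 to 5.317) and 10.8% (10.75 to 10.86). Its level was 52765 CPM in replicate 1 and 108061 CPM in replicate 2, the higher library by far, with a mean of 80413 ± 39100 CPM (SD, n = 2). Its rank was 5 in replicate 1 and 3 in replicate 2.

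Mir139 had 23447 and 17166 reads, which is 2.03% (2.000 to 2.052) and 1.44% (1.417 to 1.460) of the sense reads. Its level was 20258 CPM in replicate 1 and 14384 CPM in replicate 2, with a mean of 17321 ± 4153 CPM (SD, n = 2). Mir139 was thus lower in replicate 2, the library in which Mir22 was higher. The rank of Mir139 was 14 and then 18.

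Mir149 had 19608 and 18546 reads, or 1.69% (1.671 to 1.718) and 1.55% (1.532 to 1.576). Its level was 16941 CPM in replicate 1 and 15541 CPM in replicate 2, with a mean of 16241 ± 990 CPM (SD, n = 2). Of the 3 genes it varied least in CPM, with a coefficient of variation of 6.10% against 24.0% for Mir139 and 48.6% for Mir22. The order of Mir149 and Mir139 in this respect depends on the scaling. With TMM, explained below, their log2 ratios of replicate 2 over replicate 1 were 0.182 and -0.187. With TMM without the 3 members they were 0.226 and -0.143. The ranks of Mir149 were 17 and 16. The counting intervals of all 3 genes are narrow at this depth of 1157420 and 1193393 sense reads, and the spread between the libraries lies outside them. PCR copies of a molecule cannot be told apart here, so the intervals cover counting error only.

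**Figure D2:**
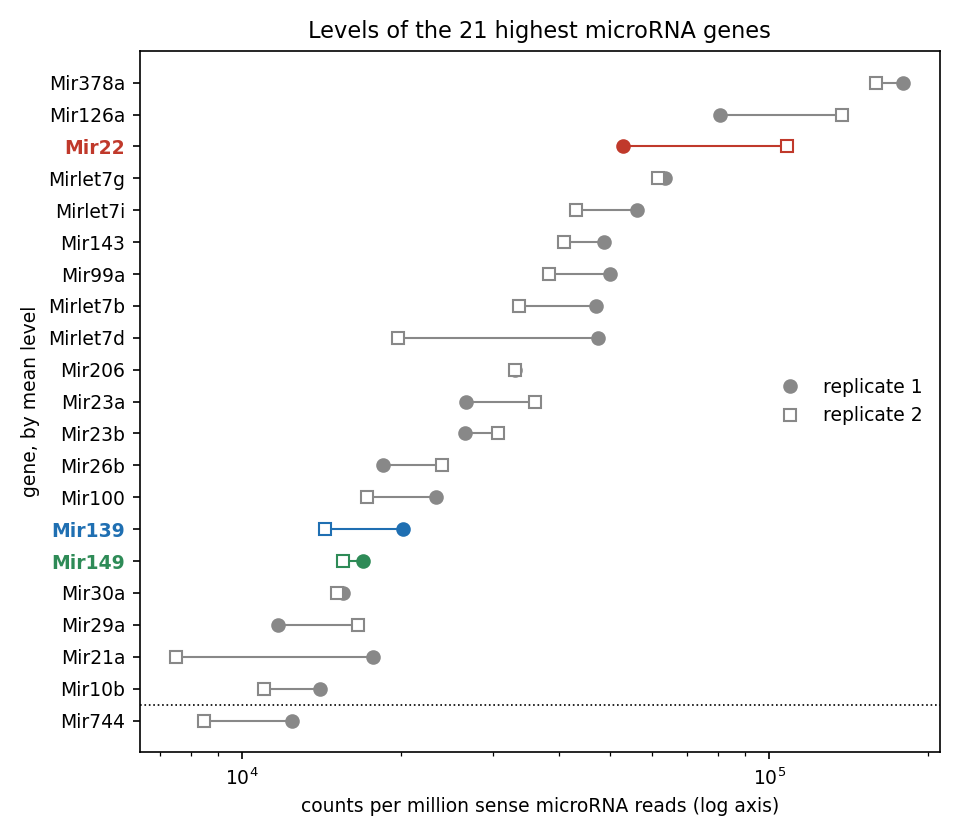
CPM (log axis) of the 21 highest microRNA genes in order of mean level, with a filled circle for replicate 1 and an open square for replicate 2; the dotted line separates rank 20 from rank 21. Mir22 spans 52765 to 108061 CPM, while Mir149 spans 15541 to 16941 CPM.

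The range of Mir22 over the libraries overlapped those of the gene above it and of the next genes below. Mir126a, the endothelial microRNA at rank 2, spanned 80768 to 137673 CPM, which overlaps the range of Mir22, although it was the higher of the pair in each library. Mirlet7g and Mirlet7i, of the let-7 family, exceeded Mir22 in replicate 1 and fell short of it in replicate 2. Mir378a, at rank 1, stood above the range of Mir22 in both libraries. Mir139 and Mir149 are neighbours whose order changed: Mir139 was higher in replicate 1 and Mir149 in replicate 2. The ranges of Mir26b, Mir100 and Mir30a also overlapped that of Mir139. Mir149 exceeded Mir30a in both libraries although their ranges overlapped, and Mir100 exceeded Mir149 in both without overlap. Mir29a, at 11704 and 16627 CPM, overlapped Mir149 and was the lower of the pair in replicate 1 and the higher in replicate 2. These levels are per gene and not per length; with CPM divided by hairpin length the ranks were 3, 13 and 16.

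No read of any member fell on the opposite strand in either library, against 61071 to 128959 sense reads for Mir22, so the opposite strand held less than 0.00491% and 0.00233% of them in replicates 1 and 2 (3 counts of the total). For Mir139 and Mir149 the same limit was between 0.0128% and 0.0175%. The column that pools both strands gave the same count as the sense column for all 3 members in both libraries, as it did for 14 of the other 17 genes among the 20 highest. The remaining 3 were Mir378a and Mir126a, whose pooled counts were 0 to 2 reads in either library, and Mir21a, with 20517 pooled and 20516 sense reads in replicate 1. The members' own counts were the same in either column, and their ranks were not: in the pooled column, where Mir378a and Mir126a had 0 to 2 reads, Mir22 took rank 1.

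Replicates 1 and 2 were then compared on a common scale. TMM, the trimmed mean of log ratios over 321 genes at 2 CPM or more in both libraries, gave factors of 1.11 and 0.899, and each gene had a two-sided exact conditional binomial test with Benjamini-Hochberg adjustment over all 321. Mir22 was 2.53-fold higher in replicate 2 (95% interval 2.51 to 2.56), with an adjusted p by this exact test too small for double precision. Mir139 was 1.14-fold higher in replicate 1 (1.12 to 1.16; exact binomial adjusted p = 2.0e-37). Mir149 was 1.13-fold higher in replicate 2 with TMM (1.11 to 1.16; exact binomial adjusted p = 8.5e-34) but 1.09-fold higher in replicate 1 with total sense reads alone (exact binomial adjusted p = 2.2e-16), so its direction depends on the scaling. All 3 were called, against 37.4% of the genes tested, with 18.7% called higher in replicate 2 and 18.7% lower. With total sense reads 10.9% were higher and 35.5% lower, and Mir22 was still 2.05-fold higher in replicate 2 and Mir139 1.41-fold higher in replicate 1.

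Most genes of high level were called. Of 57 genes at 1000 CPM or more, 48 were called, and 42 lay within 1.5-fold, among them Mir139 and Mir149. Among the same 57, 19 had a smaller ratio in either direction than Mir149 and 21 a smaller one than Mir139. For Mir22, 3 of the 57 had a larger one. Over all 321 genes, 12 had a higher ratio than Mir22.

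A test with spread beyond counting error gave other calls. At a fixed dispersion of 0.01 the edgeR exact test called 16.5% of genes, and Mir22 was among them (adjusted p = 4.6e-09) while Mir139 (adjusted p = 0.70) and Mir149 (adjusted p = 0.72) were not. That dispersion was assumed and not estimated from these libraries, so these p-values hold only for the assumed spread. At the common dispersion of these libraries, a coefficient of variation of 33.8%, the edgeR exact test called 1.56% of genes, 5 in all, and 11 had an unadjusted p under 0.05. That dispersion was estimated from the same 2 libraries that the test compares, so the difference tested enters its own spread and few calls are possible. Mir22 was not called there (unadjusted p = 0.059, adjusted p = 1.0), nor were Mir139 and Mir149 (adjusted p = 1.0 for each by the edgeR exact test).

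**Figure D3:**
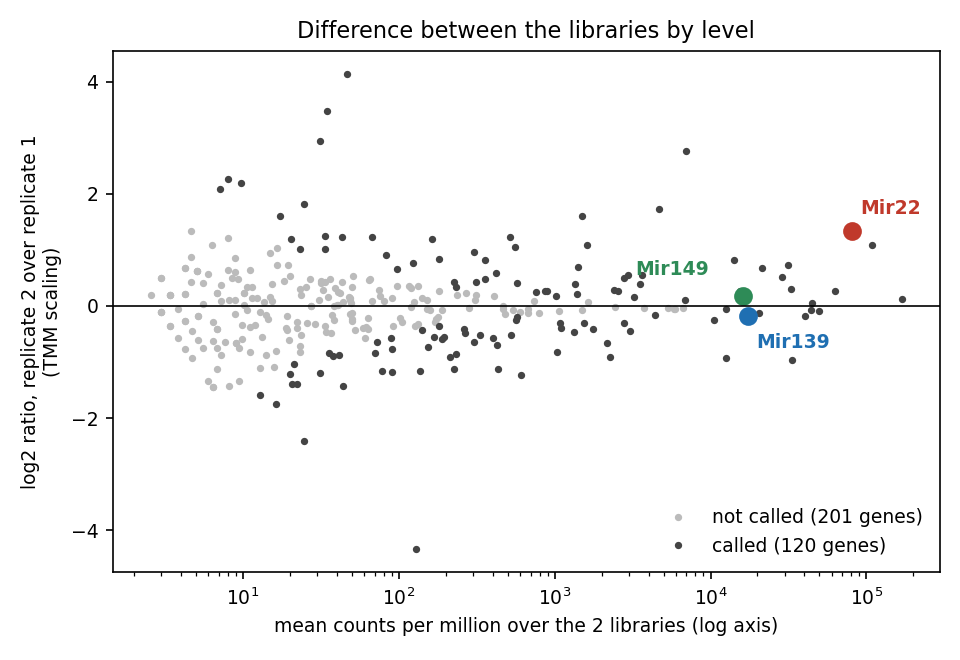
Log2 ratio of replicate 2 over replicate 1 with TMM scaling against mean CPM (log axis), 1 point for each of 321 genes, with black points called by the exact binomial test and grey points not called. Mir22 stands at a log2 ratio of 1.34, and Mir139 and Mir149 lie on either side of 0.

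**Figure D4:**
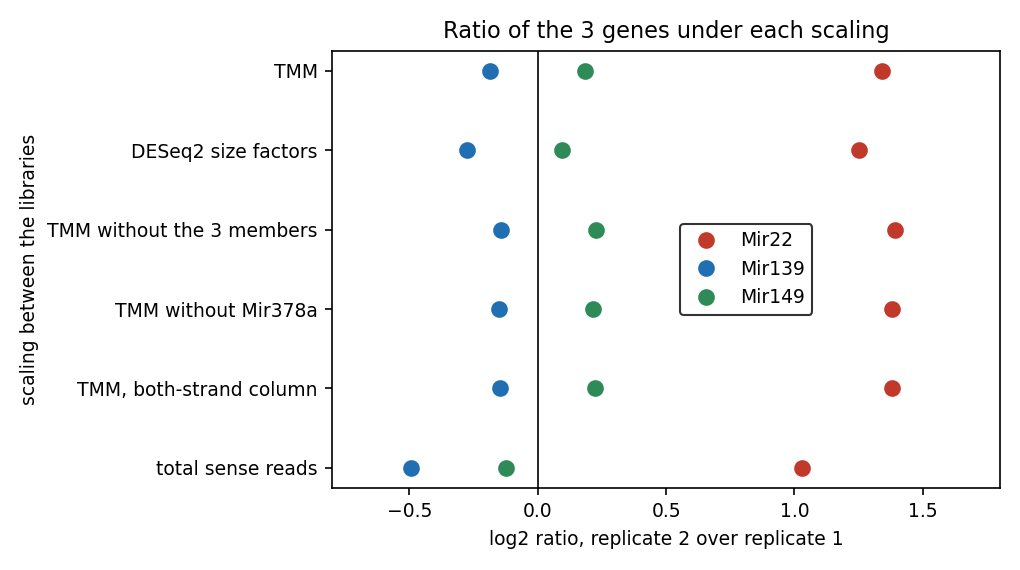
Log2 ratio of replicate 2 over replicate 1 for the 3 genes under 6 scalings. Mir22 lies between 1.03 and 1.39 and Mir139 stays below 0, while Mir149 is above 0 except with total sense reads.

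Ratios of a pair of members within a library need no scaling between libraries, and they were added after the values were seen. Mir22 had 2.60 times the reads of Mir139 in replicate 1 and 7.51 times in replicate 2, a 2.88-fold change (95% interval 2.82 to 2.95, counting error only). Against Mir149 it had 3.11 times and then 6.95 times the reads, a 2.23-fold change (2.18 to 2.28). Mir139 had 1.20 times the reads of Mir149 and then 0.926 times, a ratio 1.29-fold higher in replicate 1 (1.26 to 1.33; Fisher's exact test p = 2.2e-71). These ratios restate the unequal differences above without a scaling, on the same reads, and are no independent support for them.

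Together the members held 104126 reads in replicate 1 and 164671 in replicate 2. Mir22 alone had 67888 more reads in replicate 2, while all other genes together had 1096349 reads in replicate 1 and 1064434 in replicate 2. With the 3 members out of the denominator, Mir139 held 22261 and 16687 CPM and Mir149 held 18616 and 18028 CPM. Mir139 was lower in replicate 2 on that scale too, and the values of Mir149 lay closer to each other than before.

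Likeness was measured as the distance between log2 ratios, over 2 libraries and 57 genes of 1000 CPM or more. The genes nearest to Mir22 were Mir29c at a distance of 0.26, Mir126a at 0.26 and Mir15a at 0.27. Mir126a had 93483 and 164298 reads, and Mir29c had 1376 and 2436. Nearest to Mir139 were Mirlet7b at 0.013, Mir486, a muscle microRNA within Ank1, at 0.019, and Mir100 at 0.054. Nearest to Mir149 were Mir92-1 at 0.0027, Mir125a at 0.025 and Mir361 at 0.030. With 2 libraries the pattern of a gene is a single number, so such neighbours are common, and those of Mir22 were farther away than those of the other members.

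Markers of cell types were set beside these differences. In a bulk tissue, fewer cells of a type and less RNA per cell cannot be told apart. The endothelium list, in effect Mir126a because Mir126b had 0 and 1 reads, held 8.08% of sense reads in replicate 1 and 13.8% in replicate 2, and so moved with Mir22. Its part in the difference of Mir22 was not tested. The nerve list held 0.0413% and 0.0508%, with 5 of its 12 genes, Mir9-2, Mir9-3 and the 3 loci of Mir124a, at 0 in both libraries. Its members differed in direction. Mir128-1 had 341 and 501 reads and Mir128-2 had 48 and 54, while Mir138-1 had 41 and 27 and Mir138-2 had 35 and 12. The smooth muscle list held 5.08% and 4.21%. With TMM its Mir143 was 1.04-fold higher in replicate 2 and its Mir145a 1.33-fold higher in replicate 1. The leukocyte list held 0.318% and 0.225%, with Mir142b at 0. There Mir142 had 70 and 81 reads, while Mir150, Mir155 and Mir223 had fewer reads in replicate 2. All these shares are of total sense reads, on which the median log2 ratio over all genes tested was -0.304. The erythroid list held 0.0163% and 0.0153%, in which Mir451a had 180 and 117 reads and Mir144 had 9 and 65.

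The striated muscle list, the check of the labelled tissue, held 3.87% and 3.73%. Mir206, specific to skeletal muscle, had 38135 and 39300 reads, and Mir486 had 5963 and 4423. Of the 9 members tested, 3 were higher in replicate 2 (Mir206, Mir208b and Mir499) and 2 lower (Mir133a-1 and Mir486) by the exact binomial test with TMM, against 18.7% of all genes in each direction. With total sense reads 2 were higher and 3 lower, against 10.9% and 35.5%. Mir1a-1, Mir1a-2 and the Mir133 loci had at most 60 reads each. Mir1a and Mir133a have near-identical copies, whose shared reads were left out of the counts, so their levels are uncertain.

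Among 19 microRNAs listed for their part in muscle metabolism, atrophy or regeneration, a list that holds Mir22 and Mir149 and was drawn up with earlier results of these data known, 18 were matched and 17 tested. Of these, 11 were higher and 1 lower in replicate 2 with TMM, against 18.7% of all genes in each direction, and the median log2 ratio was 0.291 against -0.0128 over all genes. At 1000 CPM or more, 48 of 57 genes were called in either direction. The shares over all genes include many genes with too few reads for a call. They are thus a low background for the abundant genes of this list and for the 14 genes at the end of this paragraph. With total sense reads 7 were higher and 4 lower, against 10.9% and 35.5% of all genes, and the medians were -0.0112 and -0.304. Mir23a and Mir23b, known from glutamine metabolism and muscle atrophy, were 1.67-fold and 1.43-fold higher in replicate 2. These paralogues share a run of 20 bases with each other, and reads that align to both were left out of the counts. Mir29a and Mir29c, which repress collagen genes, were 1.76-fold and 2.12-fold higher in replicate 2. Mir29b-1 and Mir29b-2, of the same family, were not called (1.23-fold and 1.16-fold, exact binomial adjusted p = 0.35 and 0.75). Mir486 was the lower member, at 1.12-fold higher in replicate 1. Mir322, a microRNA of myoblast cell cycle exit, was 1.42-fold higher. Mir22 had the largest ratio in the list. Of the 14 other single-locus genes among the 20 highest, 7 were higher and 7 lower with TMM, where 18.7% of all genes were called in each direction, at a median of 0.00333. With total sense reads 3 were higher and 10 lower, where 10.9% and 35.5% of all genes were, at a median of -0.303.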

How the data were processed

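Small RNA of 2 gastrocnemius libraries was counted per microRNA gene. The authors deposited whole-number read counts, not normalized, in 3 columns without a header: both strands pooled, sense, and antisense. Assembly mm10 and annotation GENCODE M21 are given in the deposited text descriptions; no aligner is named there. The 4 lines of totals, which name no gene, entered neither library sizes nor tests. Replicates 1 and 2 had 6119818 and 6632802 reads, of which 18.9% and 18.0% were sense reads in microRNA genes. CPM, TMM (edgeR 4.0.16, R 4.3.3), DESeq2 1.42.0 size factors, a pseudocount of 1 CPM for log2 ratios and a filter of 2 CPM in both libraries were used. Python 3.11.15, scipy 1.17.1 and RNAfold 2.7.2 did the rest. The test was checked on simulated data with known changes and counting error only. That check does not cover spread between libraries beyond counting error. Sequences came from RefSeq tables (GRCm38.p6). Genes were named by rule: the members, their seed relatives, neighbours in level, likeness and position, the 20 highest, and the listed markers. The members and lists were chosen with earlier results of these data known.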

Additional observations from a re-analysis of the deposited data

How the results depend on the processing

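Of the 10 alternatives for the log2 ratios, those that changed only the filter, the pseudocount or the test kept the scaling. They could not turn the sign of a ratio. Under the alternatives that changed the scaling, the log2 ratio of Mir22 stayed above 0 and that of Mir139 below 0. That of Mir149 turned to -0.124 with total sense counts only. Calls were lost, at unchanged ratios, only in tests that add spread beyond counting: at a dispersion of 0.01 for Mir139 (-0.187) and Mir149 (0.182), and at the common dispersion for these and for Mir22 (1.34). The number of genes called was 120, and 53 and 5 in those tests. In the 8 other settings it was within 1.5 times of 120. Mean levels depended on the denominator. Over all reads of the library, Mir22 held 14711, Mir139 3210 and Mir149 3000 CPM. With the column of both strands Mir139 held 24575 and Mir149 23112 CPM. Without the most abundant gene in the denominator Mir149 held 19571 CPM, and without the 3 members 18322 CPM. With the column of both strands Mir22 ranked 1 and Mir149 14, and without genes that share a run of 20 bases Mir139 ranked 12 and Mir149 13. Leaving out a replicate gave ranks of 3 to 5 for Mir22, 14 to 18 for Mir139 and 16 to 17 for Mir149, and levels of 52765 to 108061, 14384 to 20258 and 15541 to 16941 CPM. A match of the mature sequences to the genome, planned with and without a mismatch, was not run because no genome was used here; transcripts were searched instead. No paired analysis was possible because there is 1 group.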
